A study of Saccharomyces cerevisiae with 90 samples.

Results

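The genes described here encode budding yeast enzymes of fusel alcohol metabolism and of acetate and ethyl ester synthesis, and a regulator of that metabolism. They are 10 of the 5449 genes tested, chosen by name from the probe set annotation of Affymetrix yeast arrays: BAT1 (YHR208W), BAT2 (YJR148W), ARO8 (YGL202W), ARO9 (YHR137W), ARO10 (YDR380W), ARO80 (YDR421W), ATF1 (YOR377W), ATF2 (YGR177C), EEB1 (YPL095C) and EHT1 (YBR177C). Each is measured by 1 probe set. On agar against liquid BAT2 rose in 11 of 13 pairs of groups, by at least 2-fold in 7 of them. The ethyl ester synthase gene EEB1 went the other way and fell on agar in 10 of 13 pairs, by at least 2-fold in 8. ARO9 and ARO10 had their highest means in wild-type in SLAD liquid and in both strains with pRS313 plasmids, and ARO10 lay near background in most other groups.

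In the Ehrlich pathway a transaminase takes the amino group from a branched-chain or aromatic amino acid, a decarboxylase turns the resulting keto acid into an aldehyde, and the aldehyde is reduced to a fusel alcohol or oxidised to a fusel acid. Acetyltransferases join the alcohols to acetyl-CoA, giving acetate esters, and acyltransferases join ethanol to medium-chain acyl-CoA, giving ethyl esters. Yeast uses the pathway to draw nitrogen from amino acids, and some fusel alcohols are known to promote filamentous growth.

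RNA was measured on 90 arrays in 29 groups of 3, except 6 arrays for wild-type on SD agar at 0 h. At 6 h, on agar and in liquid in SD, the strains were a tec1 knockout, an msb2 knockout, a flo11 knockout, Kss1K42R (an altered MAP kinase Kss1), PGAL1-FLO11 (named for the GAL1 promoter and the adhesin gene FLO11), STE11-4 on pRS313 (an allele of the kinase gene STE11), MSB2* on pRS316 (an allele of the mucin gene MSB2), pRS313, pRS316 and wild-type. Wild-type was also grown on SD gelatin and, on agar and in liquid, in SLAD and in SG, and PGAL1-FLO11 also in SG; the labels do not spell out these nutrient names. Wild-type on SD agar and in SD liquid was taken at 0 h as well. The question stated for the series is which genes respond to touching a solid surface through a proposed MAP-kinase pathway. The labels give no strain background, no number of clones and no statement that replicates are separate cultures, and for pRS313 and pRS316 they name the plasmid alone.

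Values are RMA log2 signals, so a difference of 1 is 2-fold, and a change is given as log2 change ± SE from a limma fit over all arrays with p adjusted over all genes of the comparison. "Rose" and "fell" are used at an adjusted p under 0.05, and counts of genes also ask for at least 2-fold. As checks of the labels, TEC1 and MSB2 were not above background on any array of their own knockouts, and HIS3 averaged 14.42 with pRS313 on agar. URA3 averaged 13.44 with pRS316 on agar. FLO11 averaged 6.77 in the flo11 knockout on agar, against 14.81 in wild-type. FLO11 averaged 10.64 in SD liquid in the arrays labelled PGAL1-FLO11, against 10.41 in wild-type, and on agar 14.50 against 14.81, while GAL1 read 8.0 on that agar; this goes against a GAL1-driven FLO11 in SD, and counts over strains in SD are given with and without those arrays. Gelatin replicate A stood 0.89 log2 (root mean square over genes) from the other arrays of its group, replicate C of wild-type in SG liquid 0.47 and replicate C of STE11-4 in SD liquid 0.44. BAT1 and ARO8 averaged 14.26 and 14.27 over all arrays, close to the 99th percentile of an array (14.87 to 14.97), so their changes may be understated. ARO9 was above the background limit on 66 of 90 arrays, ARO10 on 56 and the other members on all 90.

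In wild-type on SD agar, BAT2, the cytosolic branched-chain transaminase, rose and EEB1, an acyl-CoA:ethanol acyltransferase, fell. BAT2 read 13.58, 13.34 and 13.28 on agar, against 10.71, 10.95 and 10.73 in liquid. Every agar array lay above every liquid array, and the change was 2.60 ± 0.18 (95% interval 2.24 to 2.95), or 6.06-fold (limma adjusted p = 3.07e-19). EEB1 read 10.19, 10.17 and 10.20 on agar, against 12.53, 12.52 and 12.68 in liquid. Here every agar array was below every liquid array, with a change of -2.39 ± 0.18, or 5.24-fold lower on agar (adjusted p = 3.92e-17). These were the 2 of 10 members past 2-fold, beside 4.53% of all genes in this comparison. RNA was drawn from whole cultures, so fewer expressing cells and less RNA per cell cannot be told apart here or below.

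The mitochondrial partner BAT1 did not pass in the same comparison: with 14.32, 14.21 and 14.25 on agar, against 14.29, 14.25 and 14.30 in liquid, the groups overlap (95% interval of the change -0.16 to 0.12). Of the aromatic transaminases, ARO8, the broad and abundant enzyme, fell by 0.31 on the log2 scale. ARO9, the inducible enzyme, rose by 0.75 ± 0.17, and in liquid only 1 of 3 arrays was above background for it. ARO80, the zinc-finger activator of ARO9 and ARO10, rose by 0.42 ± 0.18, which did not pass with arrays centred on their medians (0.34, adjusted p = 0.134) or when any of 5 of the 6 arrays was left out. ARO10, the phenylpyruvate decarboxylase, and ATF1, the main alcohol acetyltransferase, did not pass, at 0.42 and 0.16. ATF2, the second acetyltransferase, fell by 0.73 and EHT1, the other ethyl ester synthase, fell by 0.85. At any size 3 members rose and 4 fell, and 51.9% of all genes passed in this comparison, so 7 of 10 is not far from what genes at large did. The members' median change was 0.07 and that of all genes 0.09.

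**Figure D1:**
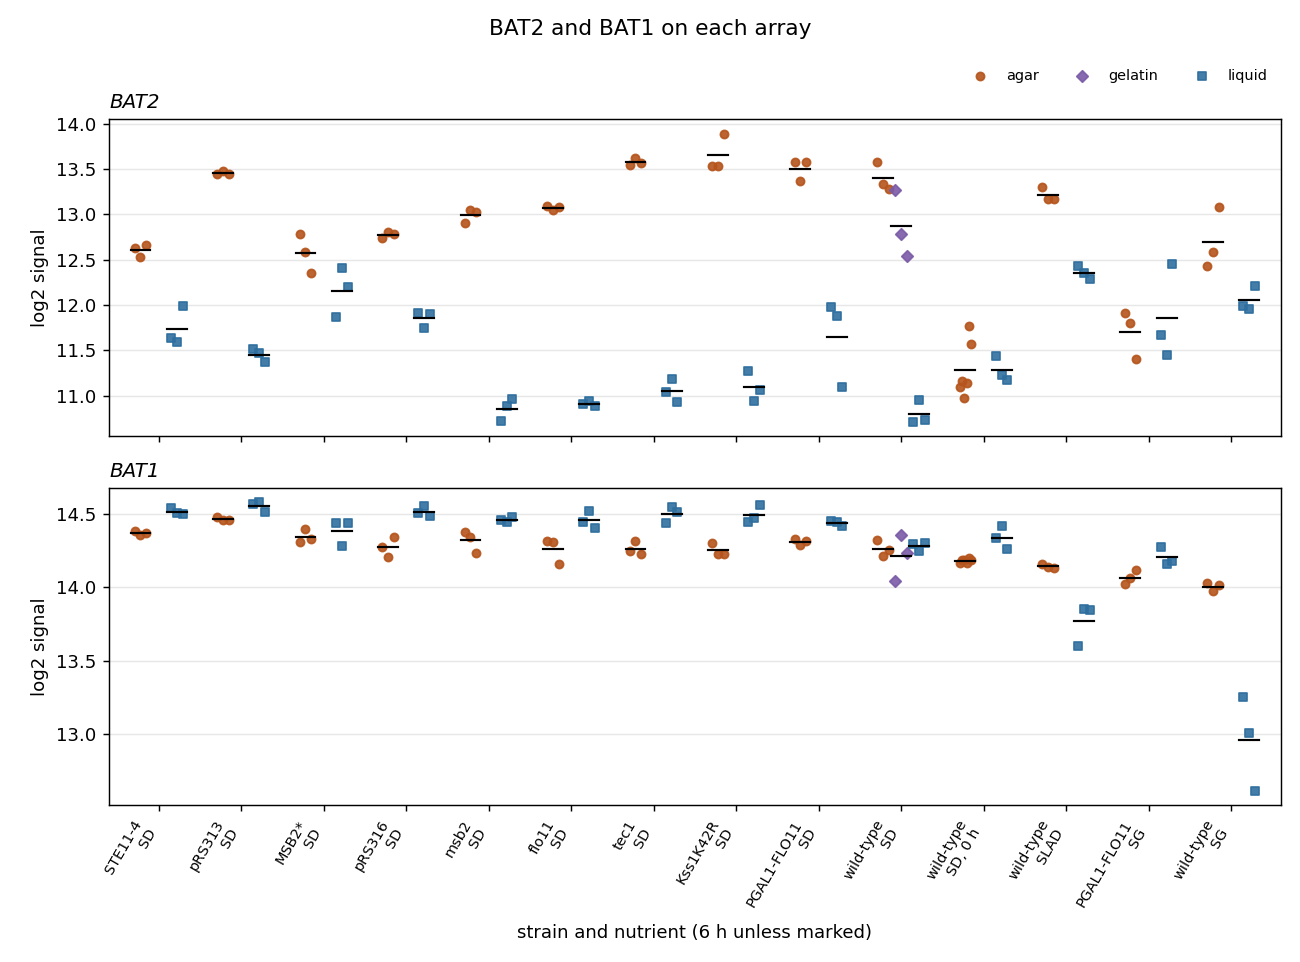
Log2 signal (y axis) of BAT2 (upper panel) and BAT1 (lower panel) on each array, by strain and nutrient (x axis), with agar, gelatin and liquid as separate symbols and a black bar at each group mean. In wild-type SD the BAT2 agar points lie between 13.28 and 13.58 and the liquid points between 10.71 and 10.95, while BAT1 stays near 14.3 in both and drops to a mean of 12.96 in wild-type SG liquid.

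Gelatin is the second solid substrate, and BAT2 and EEB1 moved on it as they did on agar. The gelatin and agar comparisons share the same 3 liquid arrays, so they are not independent. BAT2 read 13.27, 12.79 and 12.55 on gelatin, against the 10.71 to 10.95 in liquid given above. All gelatin arrays were higher, by 2.07 ± 0.18 (adjusted p = 9.14e-15), and by 1.87 without replicate A. EEB1 read 9.68, 10.88 and 10.85 on gelatin, against 12.53, 12.52 and 12.68 in liquid, a change of -2.10 ± 0.18, or -1.71 without replicate A. ATF2 fell by 0.90, and by 0.50 without replicate A. ARO8 fell by 0.26, which did not pass without replicate A (-0.08, adjusted p = 0.321). Past 2-fold, 2 of 10 members were called, beside 3.89% of all genes, and at any size 4 of 10, beside 37.2%.

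Between the solid substrates, BAT2 was higher on agar than on gelatin by 0.53 ± 0.18 (adjusted p = 0.038). That call was lost in a fit on these 6 arrays alone and when any of 5 arrays was left out, so the sizes on agar and gelatin are not firmly told apart. EHT1 was lower on agar than on gelatin by 0.65 ± 0.13 (adjusted p = 0.000329). It read 12.53, 12.50 and 12.60 on agar, against 12.65, 13.43 and 13.51 on gelatin. That call, too, was lost in a fit on these 6 arrays alone. EHT1 on gelatin did not pass against liquid, at -0.20 with replicate A and 0.08 without it. ARO80 on gelatin read 8.81 in replicate A and 7.46 and 7.10 in the others, the widest spread of any member in any group. Its change against liquid was 0.11 with replicate A and -0.41 without it.

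A rise of BAT2 on SD agar was called in every strain but MSB2*, where a smaller change in the same direction did not pass. At an adjusted p under 0.05 it rose in 9 of 10 strains in SD, in 7 of them by at least 2-fold, and without the arrays labelled PGAL1-FLO11 in 8 of 9, with 6 past 2-fold. In the Kss1K42R strain BAT2 read 13.53, 13.54 and 13.89 on agar, against 11.27, 10.94 and 11.06 in liquid, a change of 2.56 ± 0.18. In the tec1 knockout, which lacks a transcription factor of filamentous growth, it read 13.54, 13.63 and 13.57 on agar, against 11.05, 11.19 and 10.93 in liquid, a change of 2.52 ± 0.18. In both strains the arrays stood apart as in wild-type. The change was 2.16 ± 0.18 in the flo11 knockout, 2.14 ± 0.18 in the msb2 knockout, 2.0 ± 0.18 with pRS313 and 1.85 ± 0.18 in the arrays labelled PGAL1-FLO11.

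The BAT2 change was smaller in the remaining 3 strains. It was 0.92 ± 0.18 with pRS316 (12.74, 12.80 and 12.78 on agar, against 11.92, 11.75 and 11.90 in liquid) and 0.87 ± 0.18 in STE11-4. In MSB2* it was 0.42 ± 0.18 and did not pass, with 12.79, 12.58 and 12.35 on agar, against 11.87, 12.41 and 12.20 in liquid. The MSB2* arrays on agar and in liquid overlap, and the 95% interval of the change was 0.06 to 0.77. Tested directly, the agar change in STE11-4 minus that in pRS313 was -1.14 ± 0.25 (adjusted p = 0.00226), and that in pRS316 minus wild-type was -1.68 ± 0.25 (adjusted p = 6.92e-07). The pRS316 strain also differs from wild-type by URA3 (means on agar 13.44 and 4.70), and the part of this was not tested. The difference between MSB2* and its plasmid control pRS316 was not called (-0.50 ± 0.25). Nor was any called for the Kss1K42R or tec1 strain against wild-type, with BAT2 at -0.04 ± 0.25 and -0.08 ± 0.25.

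EEB1 fell on SD agar in 9 of 10 strains, 8 of them past 2-fold, and without the arrays labelled PGAL1-FLO11 in 8 of 9 and 7. The change lay between -2.28 and -2.62 in the Kss1K42R, tec1, msb2, flo11 and pRS316 strains, at -1.69 ± 0.18 with pRS313 and at -2.83 ± 0.18 in the arrays labelled PGAL1-FLO11. The pattern came from the liquid side: EEB1 means on SD agar at 6 h stayed between 9.87 and 10.26 in all 10 strains, whereas SD liquid means ran between 10.03 and 13.00. The lowest liquid mean was that of MSB2*, where EEB1 on agar had a mean of 9.98 ± 0.03 and in liquid one of 10.03 ± 0.08 (SD over 3 arrays). The change there did not pass (-0.05 ± 0.18), and the agar change in MSB2* minus that in pRS316 was 2.57 ± 0.26 (adjusted p = 6.12e-11). In STE11-4 the fall was -0.83 ± 0.18, and its difference from pRS313 was 0.86 ± 0.26 (adjusted p = 0.0351). That EEB1 difference was lost when any of 10 of its 12 arrays was left out, for example without replicate C of STE11-4 in liquid (0.91, adjusted p = 0.0654).

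Among the other members, EHT1 fell on SD agar in all 10 strains and was past 2-fold in none, with changes from -0.37 to -0.98, and in all 9 without the arrays labelled PGAL1-FLO11. The calls in msb2 and flo11 were each lost when either of 2 arrays was left out. ATF2 passed in 8 of 10 strains: it fell in 7, most in msb2 (-1.43 ± 0.14), and rose in MSB2* (0.61 ± 0.14). Without the arrays labelled PGAL1-FLO11, ATF2 passed in 7 of 9. ARO8 fell in 7 (6 without those arrays) and BAT1 in 4 (again 4), each by at most 0.35. ARO10 rose with pRS313 and in STE11-4 and fell in MSB2* (-0.56 ± 0.19). ATF1, which did not pass in the arrays labelled PGAL1-FLO11, rose in 3 strains (pRS316 0.69, flo11 0.41 and msb2 0.37) and fell in 2 (STE11-4 -0.42 and tec1 -0.34), and of these the msb2, tec1 and STE11-4 calls were lost with arrays centred on their medians. The STE11-4 value of ATF1 was -0.15 without replicate C of the liquid group, and the flo11 call was lost without either of 2 arrays.

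Counted by strain on SD agar against SD liquid, the members past 2-fold were 2 of 10 in Kss1K42R (4.72% of all genes), 2 in tec1 (5.36%), 3 in msb2 (4.61%) and 2 in flo11 (3.58%). They were 4 with pRS313 (2.40%), 1 with pRS316 (4.88%) and 2 in the arrays labelled PGAL1-FLO11 (5.87%). In STE11-4 (4.40%) and MSB2* (2.33%) the count past 2-fold was 0. At an adjusted p under 0.05 and any size, 3 members rose and 3 fell in STE11-4, and 1 rose and 2 fell in MSB2*. At an unadjusted p under 0.05 there were 7 and 5 members. The share of all genes at these last cuts was not counted, so these counts are not compared with genes at large. The pRS313 count is the highest of these because ARO9 and ARO10 joined BAT2 and EEB1 there. Both were near the 2-fold limit. Without replicate A of pRS313 in liquid, ARO9 was 0.99 and ARO10 0.93, and without replicate C on agar ARO10 was 0.97.

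**Figure D2:**
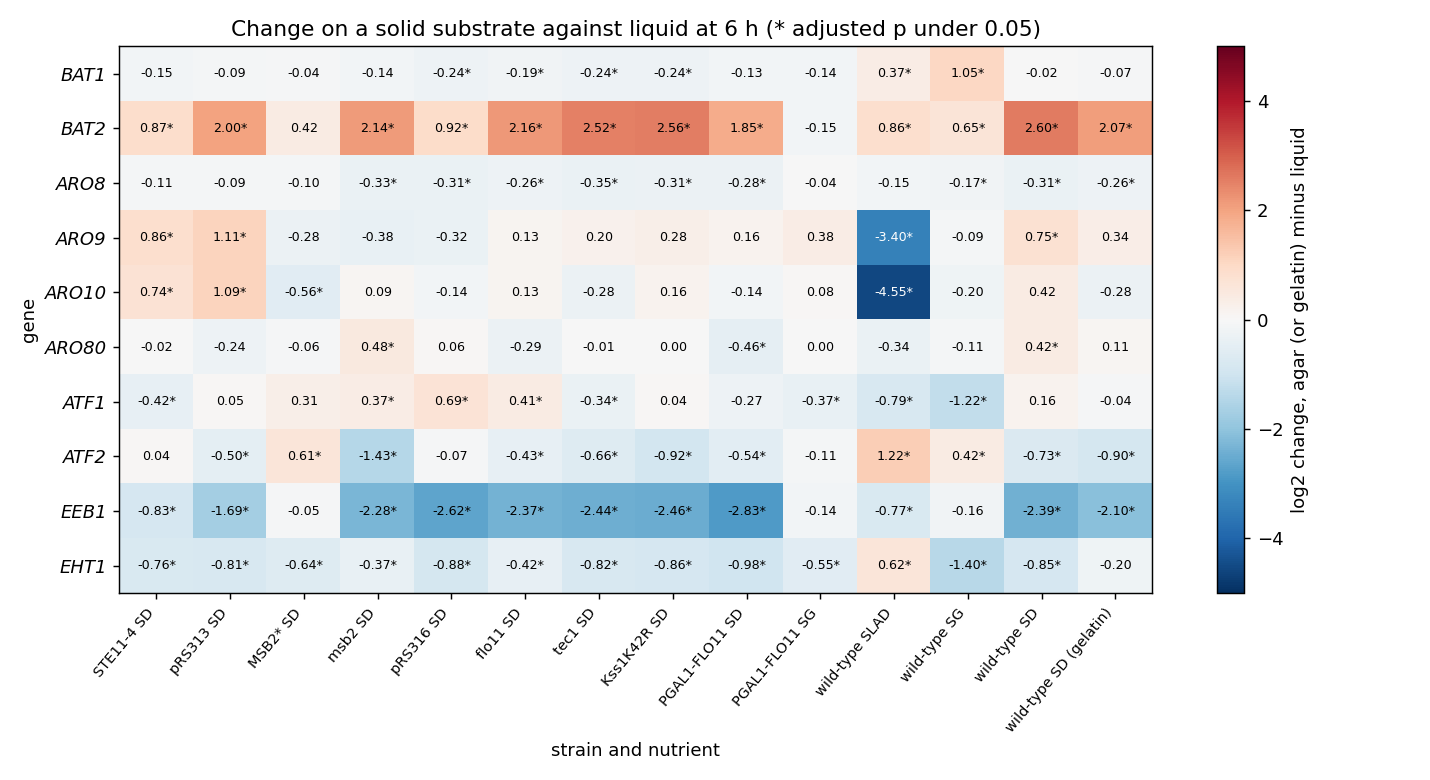
Heat map of the log2 change on agar minus liquid at 6 h in 13 pairs of groups, and of gelatin minus liquid in the last column, for each of the 10 genes (rows). Red is higher and blue lower on the solid substrate, the number is the change, and an asterisk marks a limma adjusted p under 0.05. BAT2 is red in most SD columns and EEB1 blue, and ARO9 and ARO10 in SLAD are the deepest blue cells at -3.40 and -4.55.

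Set directly against wild-type on SD agar, no member passed at any size in Kss1K42R, tec1 or flo11, with 1, 3 and 1 of 10 at an unadjusted p under 0.05. At the adjusted p, by which no member passed, 5.82%, 6.68% and 1.05% of all genes passed in these comparisons, and 0.551%, 0.661% and 0.349% were past 2-fold. The share of all genes at the unadjusted cut was not counted. BAT2 averaged 13.66 ± 0.21 in Kss1K42R, 13.58 ± 0.04 in tec1 and 13.07 ± 0.02 in flo11, against 13.40 ± 0.16 in wild-type (SD, n = 3 each). In the msb2 knockout on agar 0 of 10 members were past 2-fold (2.99% of all genes). At an unadjusted p under 0.05 there were 4, again without a counted share of all genes. ARO80 rose there by 0.79 ± 0.18, ATF2 fell by 0.47, and ARO9 fell to levels not above background on any array.

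Order among all groups shows how closely BAT2 followed the substrate. Of the 14 groups on a solid substrate at 6 h, 13 had a higher BAT2 mean than all 13 liquid groups at 6 h. They ran from 13.66 in Kss1K42R on agar down to 12.58 in MSB2* on agar. The exception was PGAL1-FLO11 on SG agar at 11.70 ± 0.27. Without the SD arrays labelled PGAL1-FLO11 the count was 12 of 13. The liquid groups ran from 12.36 in wild-type in SLAD to 10.80 in wild-type in SD, and the 0 h groups lay among them at 11.28 on agar and 11.28 in liquid. Neighbours in this order mostly did not differ beyond their arrays: 26 of 28 neighbouring pairs overlapped. For EEB1, 10 of 13 liquid groups at 6 h had means above all 14 solid groups, the others being MSB2* in SD and both SG groups, and without the SD arrays labelled PGAL1-FLO11 it was 9 of 12.

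SLAD and SG asked the same question in other nutrients, and the pattern differed from that in SD. In wild-type in SLAD, BAT2 read 13.30, 13.17 and 13.17 on agar, against 12.43, 12.35 and 12.29 in liquid, a rise of 0.86 ± 0.18. In wild-type in SG it read 12.43, 12.59 and 13.08 on agar, against 11.99, 11.95 and 12.21 in liquid, a rise of 0.65 ± 0.18. The arrays did not overlap in either nutrient. Against the agar change in SD, the difference was -1.74 ± 0.25 for SLAD (adjusted p = 1.99e-08) and -1.95 ± 0.25 for SG (adjusted p = 1.57e-09), both comparisons resting on the same SD arrays. In both nutrients the difference was mainly on the liquid side. BAT2 in liquid was higher in SLAD than in SD by 1.56 ± 0.18 and higher in SG than in SD by 1.25 ± 0.18, whereas on agar SLAD did not differ from SD by the test (-0.18 ± 0.18) and SG minus SD was -0.70 ± 0.18.

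Among agar changes of the 10 members, those of ARO9 and ARO10 in wild-type in SLAD were the largest. ARO9 read 5.75, 6.22 and 6.22 on SLAD agar, against 9.48, 9.45 and 9.46 in SLAD liquid, a change of -3.40 ± 0.17 (adjusted p = 6.68e-27). ARO10 read 6.21, 6.29 and 5.94 on agar, against 10.99, 10.74 and 10.36 in liquid, a change of -4.55 ± 0.19 (adjusted p = 2.15e-31). Both genes were thus high in liquid only, and on agar 2 of 3 arrays were above background for each, so the folds as measured, 10.5-fold and 23.4-fold lower on agar, may be too small. Liquid SLAD against liquid SD gave the same picture: ARO10 was at least 23.7-fold higher in SLAD (adjusted p = 4.49e-33), being above background on no SD liquid array, and ARO9 was higher by 3.59 ± 0.17. ARO80, their activator, was higher in SLAD liquid by 0.84 ± 0.18. Wild-type in SD liquid was, however, the lowest of 29 groups for ARO80, at 7.69. SLAD liquid, at 8.53, lay near pRS316 in SD liquid at 8.51 and below MSB2* in SD liquid at 8.67.

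Ester genes moved as well in SLAD. ATF2 read 10.03, 10.08 and 10.05 on SLAD agar, against 8.58, 8.93 and 9.0 in SLAD liquid, a rise of 1.22 ± 0.14. That is opposite in sign to its fall in SD, and the difference of the agar changes, SLAD minus SD, was 1.95 ± 0.20 (adjusted p = 3.56e-13). EHT1 rose on SLAD agar by 0.62 ± 0.13, also opposite to SD, with a difference of 1.47 ± 0.19. ATF1 fell by 0.79 and EEB1 by 0.77, a difference from SD of 1.62 ± 0.26 for EEB1. In all, 3 of 10 members were past 2-fold on SLAD agar against liquid, beside 24.0% of all genes, and at any size 8, beside 72.9%, so their share is close to the background. For the difference of agar changes, 6 of 10 were called, beside 17.5%.

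In SG the transaminase BAT1 and the ester genes ATF1 and EHT1 changed between substrates in wild-type. BAT1 read 14.03, 13.97 and 14.01 on SG agar, against 13.25, 13.01 and 12.62 in SG liquid, its lowest group. It rose by 1.05 ± 0.07 (adjusted p = 7.16e-21), and by 0.87 without replicate C of the liquid group, which falls short of 2-fold. ATF1 read 9.66, 10.18 and 9.97 on agar, against 11.01, 11.14 and 11.32 in liquid, and EHT1 read 11.89, 12.32 and 12.48 on agar, against 13.62, 13.68 and 13.59 in liquid. ATF1 fell by 1.22 and EHT1 by 1.40, and neither overlapped between substrates. EEB1 was low on both, at 9.47 ± 0.11 on agar and 9.64 ± 0.14 in liquid, with a change of -0.16 ± 0.18 that did not pass. Past 2-fold on SG agar against liquid were 3 of 10 members, beside 15.7% of all genes, and at any size 6, beside 64.6%. For the difference of agar changes, SG minus SD, 5 of 10 were called, beside 12.5%.

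In PGAL1-FLO11 in SG the agar changes of BAT1, ATF1 and EHT1 differed from those of wild-type. ATF1 and EHT1 still fell there, by 0.37 and 0.55, and the differences from wild-type were 0.85 ± 0.19 for each. BAT1 read 14.02, 14.06 and 14.12 on agar, against 14.27, 14.16 and 14.18 in liquid. Its agar change minus that of wild-type was -1.18 ± 0.10 (adjusted p = 4.53e-16). BAT2 read 11.91, 11.80 and 11.40 on agar, against 11.67, 11.45 and 12.46 in liquid, which overlap, with a change of -0.15 ± 0.18. Its sign rests on the BAT2 liquid array at 12.46, being 0.15 without it. The BAT2 agar change minus that of wild-type was -0.80 ± 0.25 (adjusted p = 0.0055), and -0.50 without that array (adjusted p = 0.0781). None of 10 members was past 2-fold there, beside 3.03% of all genes. At an unadjusted p under 0.05 there were 3, and the share of all genes at that cut was not counted.

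Between nutrients in liquid, most members moved, as did many genes. In wild-type liquid, SG against SD called 7 of 10 past 2-fold, beside 29.5% of all genes, and SLAD against SD 6 of 10, beside 16.7%. With arrays centred on their medians, BAT2 (0.976), ARO9 (0.737) and ARO80 (0.998) were short of 2-fold in SG against SD. Under quantile normalization ARO9 (0.986) and ARO80 (0.906) were short of it too. ATF2 showed the largest fall of any member in these comparisons. It read 7.77, 7.96 and 8.02 in SG liquid, against 11.56, 11.69 and 11.61 in SD liquid, a change of -3.70 ± 0.14 (adjusted p = 4e-34). In SLAD liquid the change of ATF2 was -2.79 ± 0.14. EEB1 fell as well, at -2.94 ± 0.18 in SG and -1.60 ± 0.18 in SLAD. ATF1 rose in both nutrients, by 1.48 ± 0.14 in SG and 0.59 ± 0.14 in SLAD. BAT1 fell in both, at -1.32 ± 0.07 in SG and -0.51 ± 0.07 in SLAD. These SLAD and SG comparisons share the SD liquid arrays.

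On agar fewer members differed between nutrients. SG against SD called 1 of 10 past 2-fold, ATF2 at -2.55 ± 0.14, beside 12.3% of all genes. ATF2 read 8.41, 8.33 and 8.28 on SG agar, against 10.92, 10.92 and 10.82 on SD agar. SLAD against SD called 0 of 10 past 2-fold, beside 0.440% of all genes. At an unadjusted p under 0.05 there were 3 members, and the share of all genes at that cut was not counted. ATF2 was again the member that passed at any size, at -0.84 ± 0.14. The low ATF2 level in SG was shared by PGAL1-FLO11, with 8.45 ± 0.11 on agar and 8.56 ± 0.05 in liquid.

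**Figure D3:**
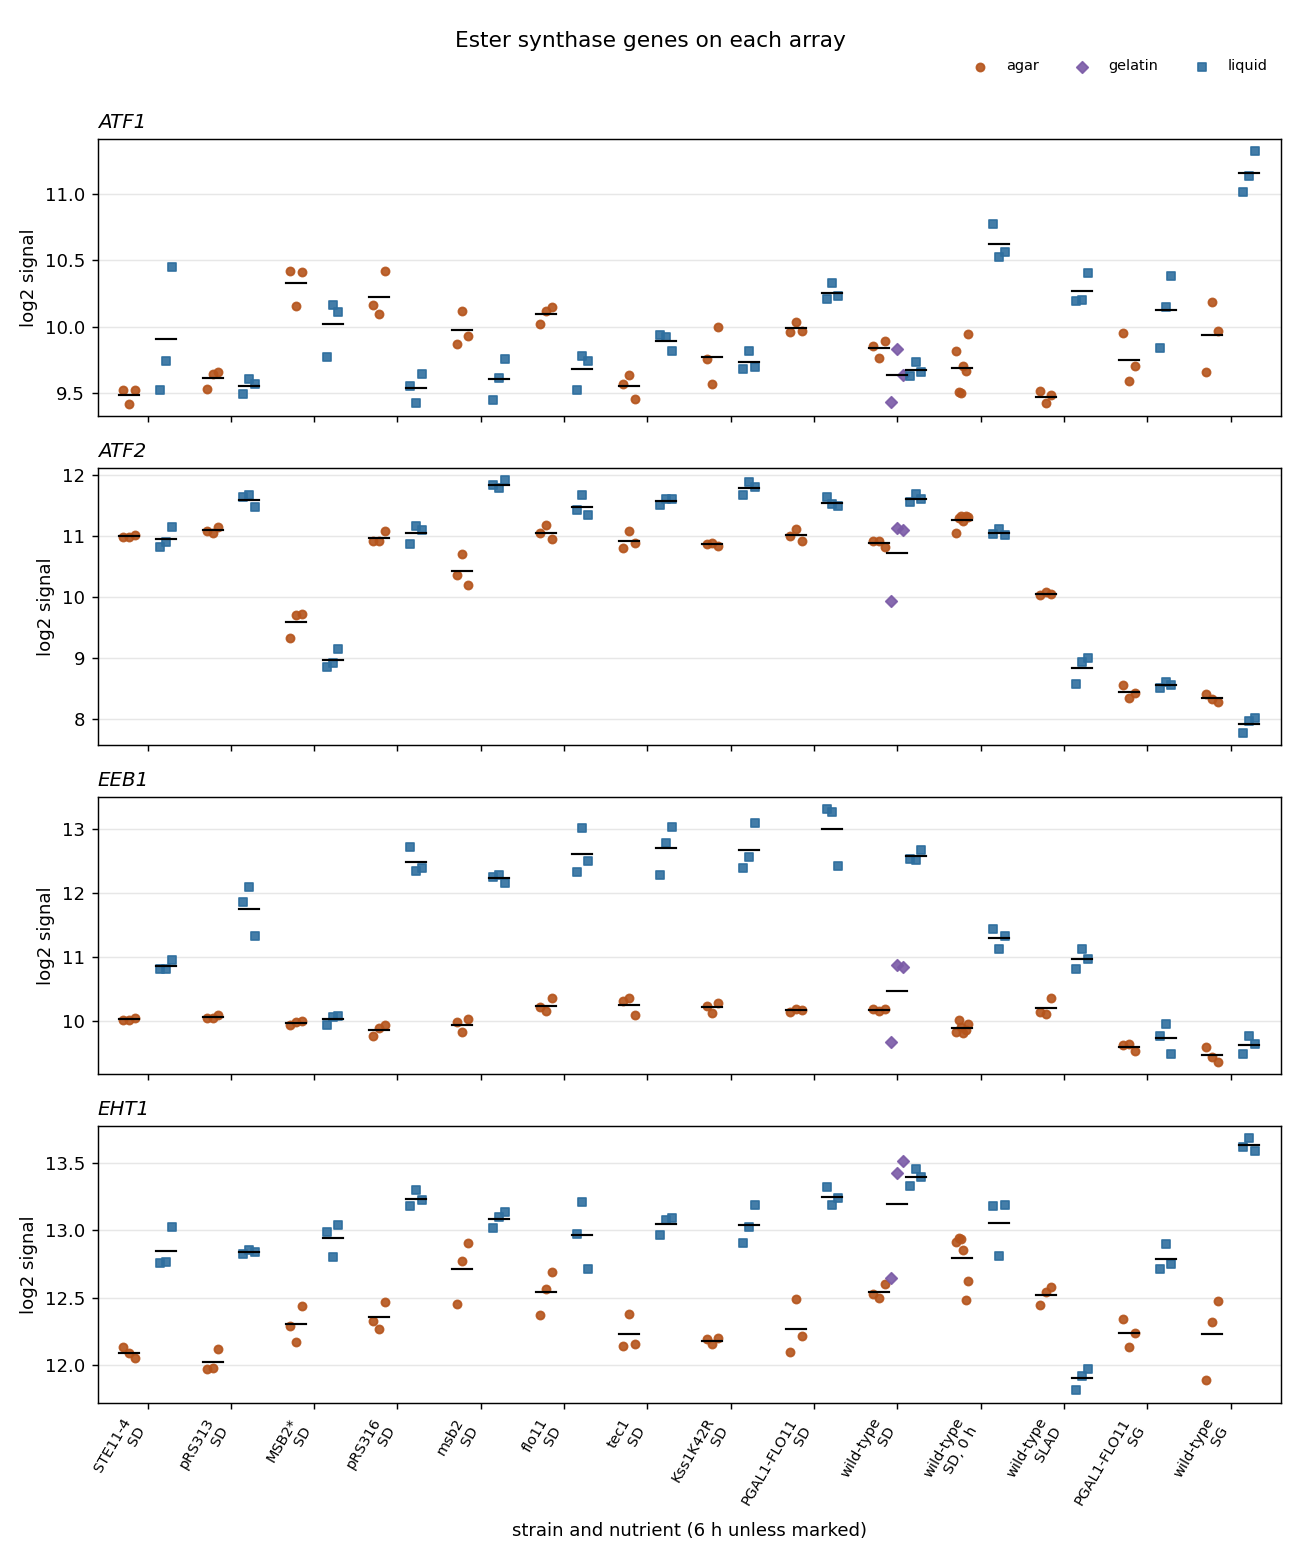
Log2 signal (y axis) of the ester synthase genes ATF1, ATF2, EEB1 and EHT1 on each array, by strain and nutrient (x axis), with agar, gelatin and liquid as separate symbols and a black bar at each group mean. EEB1 means on SD agar at 6 h lie between 9.87 and 10.26, while 7 of 10 SD liquid means lie above 12, and ATF2 is lowest in the SG groups, with means from 7.92 to 8.56.

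ARO9 and ARO10 were the members that differed most between strains, and they were highest in strains carrying pRS313. In STE11-4 on agar ARO9 read 10.52, 9.88 and 10.32, against 8.70, 9.13 and 9.13 with pRS313. It was higher in STE11-4 by 1.26 ± 0.17 (adjusted p = 1.69e-07), and in liquid by 1.51 ± 0.17. ARO10 read 9.48, 9.07 and 9.55 in STE11-4 on agar, against 7.82, 8.24 and 8.41 with pRS313, a change of 1.21 ± 0.19, and in liquid 1.56 ± 0.19. No array overlapped for either gene on either substrate. Past 2-fold these were the 2 members called in STE11-4 against pRS313 on agar, beside 0.789% of all genes, and again the 2 in liquid, beside 2.81%.

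ARO9 and ARO10 were already higher in the arrays labelled pRS313 alone than in wild-type. Those arrays form whole groups, so the plasmid cannot be told apart from anything else that set them apart. Against wild-type, the pRS313 strain was higher on agar by 2.37 ± 0.17 for ARO9 and 1.94 ± 0.19 for ARO10, the 2 members called there (1.38% of all genes). In liquid it was higher by 2.01 ± 0.17 for ARO9 and at least 1.91-fold for ARO10, again the 2 called (3.05%). The ARO10 call rests on values as measured, with wild-type in SD liquid above background on no array. Its bound falls short of 2-fold. The pRS313 strain differs from wild-type by HIS3, whose group mean was 14.42 with the plasmid on agar and 6.01 in wild-type, and the part of this in the result was not tested. With pRS316, ARO9 was higher than in wild-type in liquid by 1.30 ± 0.17 but did not pass on agar (0.24 ± 0.17). That strain differs from wild-type by URA3, whose part was likewise not tested. ARO9 and ARO10 also rose on agar against liquid with pRS313, by 1.11 ± 0.17 and 1.09 ± 0.19, and in STE11-4 by 0.86 ± 0.17 and 0.74 ± 0.19, a direction opposite to that in wild-type in SLAD. ARO80 differed little among these strains, at 8.21 ± 0.06 in STE11-4, 8.16 ± 0.09 with pRS313 and 8.11 ± 0.18 in wild-type on SD agar. In liquid ARO80 was higher with pRS313 than in wild-type by 0.72 ± 0.18, wild-type in SD liquid being the lowest ARO80 group at 7.69.

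**Figure D4:**
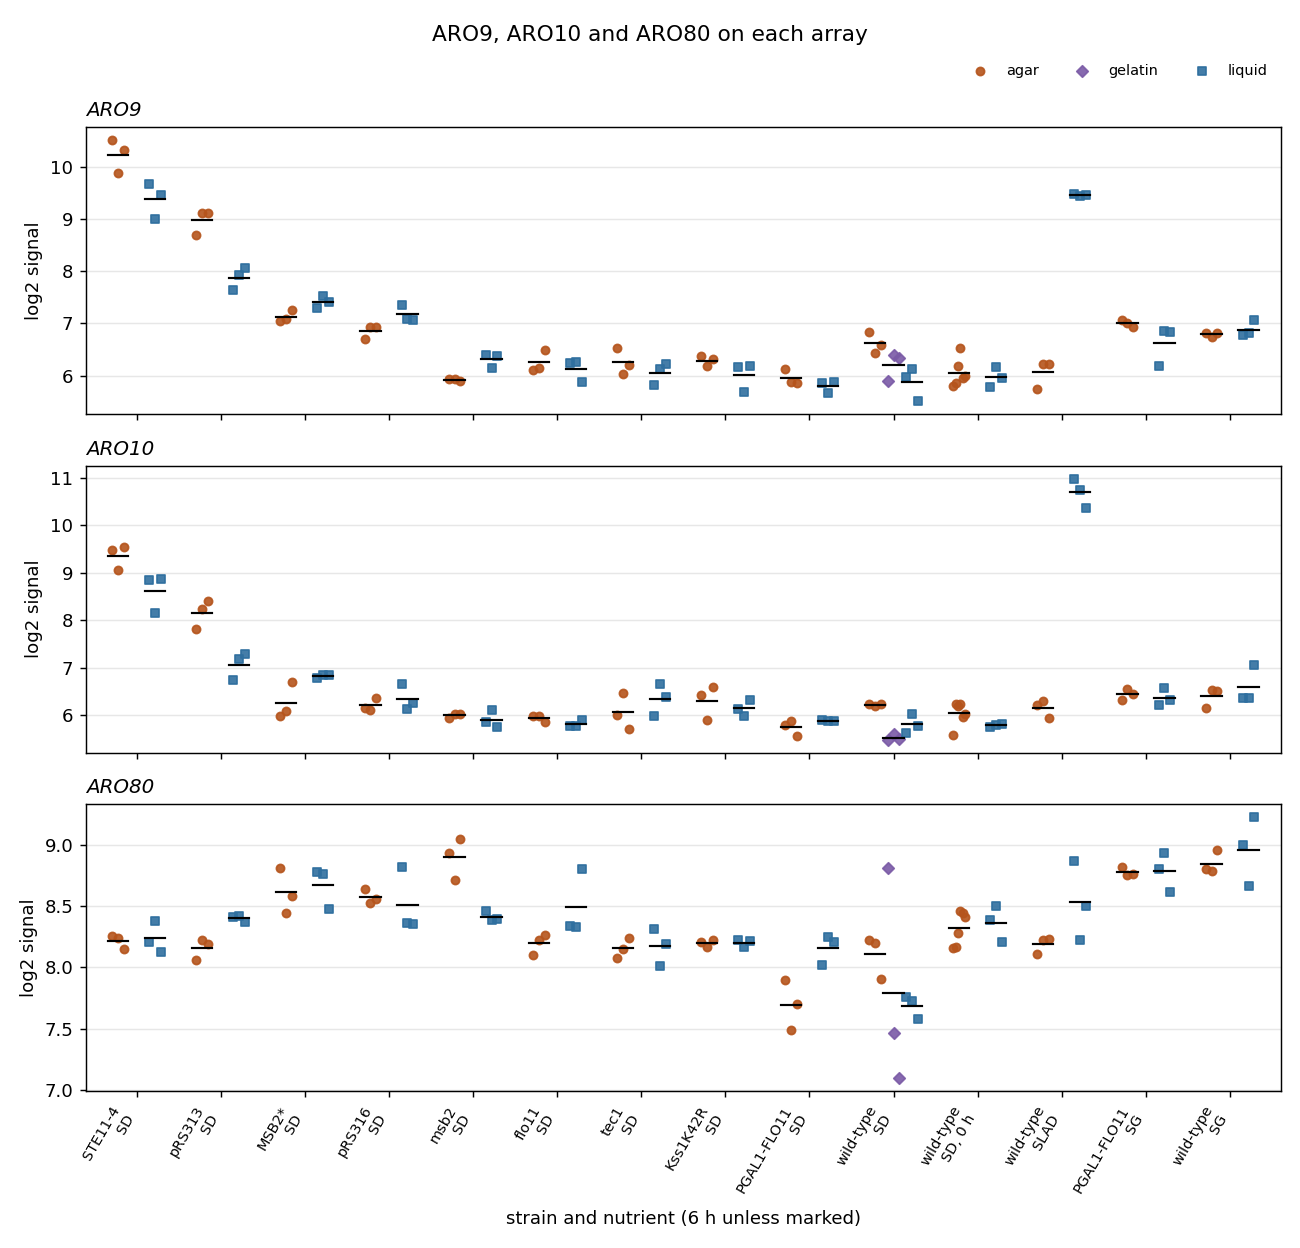
Log2 signal (y axis) of ARO9, ARO10 and ARO80 on each array, by strain and nutrient (x axis), with agar, gelatin and liquid as separate symbols and a black bar at each group mean. ARO9 and ARO10 stand out in STE11-4, in pRS313 and in wild-type SLAD liquid (means of 9.46 for ARO9 and 10.70 for ARO10) while ARO80 means stay between 7.69 and 8.96.

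In MSB2* against pRS316, ATF2 fell on both substrates and EEB1 fell in liquid. ATF2 read 9.33, 9.71 and 9.73 in MSB2* on agar, against 10.92, 10.93 and 11.09 with pRS316. In liquid it read 8.85, 8.92 and 9.15 in MSB2*, against 10.87, 11.16 and 11.11 with pRS316. All MSB2* arrays were lower, with a change of -1.39 ± 0.14 on agar and -2.07 ± 0.14 in liquid (adjusted p = 2.53e-12 and 2.65e-19). EEB1 read 9.94 to 10.09 in MSB2* in liquid, against 12.72, 12.34 and 12.39 with pRS316, a change of -2.46 ± 0.18, and did not pass on agar (0.11 ± 0.18). On agar 1 of 10 members was past 2-fold (1.67% of all genes) and in liquid 2 (2.68%). BAT2 did not pass between MSB2* and pRS316 on either substrate, at -0.20 ± 0.18 on agar and 0.30 ± 0.18 in liquid.

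Sampling at 0 h shows which substrate differences were there at the start. BAT2 on agar at 0 h read between 10.97 and 11.77 over 6 arrays (median 11.15), and 11.44, 11.23 and 11.17 in liquid at 0 h, which overlap. At 6 h on agar it was higher than at 0 h by 2.11 ± 0.15 (adjusted p = 5.33e-17), the only member past 2-fold (1.74% of all genes). In liquid the BAT2 change was -0.48 ± 0.18 (adjusted p = 0.0177), a call lost under quantile normalization, under centring and without any of 3 arrays. The agar change at 6 h minus that at 0 h was 2.60 ± 0.23 for BAT2 (adjusted p = 5.53e-14).

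EEB1, unlike BAT2, already differed at 0 h. It read between 9.82 and 10.02 on agar at 0 h (6 arrays, median 9.89), against 11.44, 11.13 and 11.33 in liquid, a change of -1.40 ± 0.16, and was the 1 member past 2-fold at 0 h (6.96% of all genes). In liquid EEB1 was higher at 6 h than at 0 h by 1.28 ± 0.18, again the only member past 2-fold (6.37% of all genes), so the agar change widened by -0.99 ± 0.24 (adjusted p = 0.000588). ATF1 on agar at 0 h changed by -0.93 ± 0.12 against liquid and did not differ by the test at 6 h, and the difference between these changes was 1.09 ± 0.18 (adjusted p = 1.21e-06). The 0 h agar and 0 h liquid arrays form whole groups, so anything that set those arrays apart cannot be told apart from the substrate.

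Other genes of the pathway were taken from 10 lists of 71 genes, 68 of them measured (TRP1, MGL2 and EAT1 had no matched probe set). Among the keto acid decarboxylases, 4 of 4 fell on SLAD agar against SLAD liquid, where 72.9% of all genes passed at any size, and 1 was past 2-fold (24.0% of all genes): PDC6, the minor pyruvate decarboxylase, at -4.38 ± 0.15. In SLAD liquid against SD liquid PDC6 was higher by 4.18 ± 0.15, so it moved in the same comparisons as ARO10. In SD agar against liquid 0 of 4 were past 2-fold (4.53% of all genes), with PDC5 at -0.71 ± 0.15 and PDC6 at -0.40 ± 0.15. The aldehyde reducing enzymes showed 1 of 10 past 2-fold on SD agar, again beside 4.53% of all genes. This was the glucose-repressed ADH2 at -1.22 ± 0.30, while GRE2, a reductase that acts on isovaleraldehyde, rose by 0.57 ± 0.15. GRE2 was also higher in SLAD liquid than in SD liquid by 2.10 ± 0.15.

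The aldehyde dehydrogenases, which make the acid products, had 0 of 6 past 2-fold on SD agar, 4 of 6 on SLAD agar and 5 of 6 on SG agar. The share of all genes past 2-fold in these comparisons was 4.53%, 24.0% and 15.7%. ALD2 and ALD3, a pair of closely related cytosolic enzymes, changed by -3.51 ± 0.14 and -2.94 ± 0.24 on SLAD agar, while ALD6, the main cytosolic acetaldehyde dehydrogenase, rose by 3.28 ± 0.20. On SG agar ALD3 changed by -3.95 ± 0.24 and ALD6 rose by 2.52 ± 0.20. PDR12, which exports weak acids from the cell, changed by -1.10 ± 0.22 on SD agar and -1.13 ± 0.22 on SLAD agar, and did not pass on SG agar. ALD2 and ALD3 share sequence, so their probe sets may read in part the same transcripts.

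On SD agar against SD liquid, where 51.9% of all genes passed at any size and 4.53% also past 2-fold, synthesis and uptake of amino acids were counted likewise. Of the 11 genes of branched-chain synthesis 5 passed at any size and 0 were past 2-fold, with OAC1, a mitochondrial carrier used in leucine synthesis, at 0.43 ± 0.10. Of the 11 aromatic synthesis genes measured 8 passed at any size and 0 were past 2-fold, among them TRP2 at 0.58 ± 0.06. Of the 6 permeases 3 passed at any size and 2 fell past 2-fold, the general amino acid permease GAP1 at -1.64 ± 0.29 and the branched-chain permease BAP2 at -1.64 ± 0.27. Of the 9 regulators 1 did, the GATA repressor DAL80 at -2.70 ± 0.39. In SG liquid against SD liquid, 3 of 11 branched-chain genes fell past 2-fold. Among all 5449 genes 672 fell and 934 rose past it, 29.5% in either direction. The 3 genes were LEU9 at -2.56 ± 0.12, OAC1 at -1.89 ± 0.10 and ILV1 at -1.18 ± 0.09, in the comparison in which BAT1 fell.

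For the acyl chain genes, 0 of 8 were past 2-fold on SD agar, beside 4.53% of all genes. FAA1, an acyl-CoA synthetase, rose by 0.64 ± 0.07 and OLE1, the fatty acid desaturase, changed by -0.30 ± 0.06. IAH1, the esterase that splits isoamyl acetate, was the 1 gene of its list measured and did not pass on SD agar. It was higher in STE11-4 than with pRS313, by 0.67 ± 0.10 on agar and 0.64 ± 0.10 in liquid, and higher in MSB2* than with pRS316, by 0.98 ± 0.10 on agar and 0.63 ± 0.10 in liquid.

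Members did not move as a block over the 29 groups. As a description over group means that share arrays and controls, ARO9 and ARO10 were the most alike pair (Pearson r 0.93, Spearman rho 0.86). By Pearson r, BAT1 with ATF2 (0.71, rho 0.69) and ARO8 with EEB1 (0.70, rho 0.59) came next. By Spearman rho, ATF2 with EEB1 (0.74, r 0.63) and BAT1 with ARO8 (0.73, r 0.39) did. BAT2 ran against EEB1 (-0.67 and -0.45), ARO8 (-0.63 and -0.65) and EHT1 (-0.64 and -0.66), and showed little relation to BAT1 (-0.15 and -0.36). ARO80 and its known targets had a Pearson r of 0.14 and a Spearman rho of 0.40 for ARO9, and of 0.12 and 0.43 for ARO10.

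Outside the set, the genes whose group means were most like those of BAT2 were CIS1 (r 0.81), BSC1 (0.79), DLS1 (0.77), PYC1 (0.77) and STE4 (0.76), over 29 groups. By Spearman rho they were TAE1, RPC19, TIM13, STE4 and RPC11, from 0.79 to 0.78, so STE4 alone was on both lists. For ARO9 they were SRL4 (0.79), DCV1 (0.79), HIS3 (0.74), SPS22 (0.70) and NDE2 (0.70), where HIS3 is the marker of the plasmid carried by 4 of the 5 groups highest in ARO9. For ARO10 they were YHI9 (0.77), STE11 (0.77), FZF1 (0.75), ARA2 (0.73) and MFA1 (0.72). By Spearman rho NDE2 came first for both ARO9 (0.88) and ARO10 (0.84). The other genes by rho were PIG1, CDA1, ICL2 and MCH2 for ARO9 and JLP1, ICL2, SPG4 and MGT1 for ARO10, so NDE2 alone was on both lists for ARO9 and no gene was for ARO10. For ATF1 they were MAF1 (0.86), RRT13 (0.84), YAK1 (0.84), FUN19 (0.81) and TPK2 (0.80), of which MAF1 and YAK1 were also among the first 5 by Spearman rho.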

How the data were processed

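The deposited values are log2 signals of 10928 probe sets on 90 arrays, made with RMA per the submitters' processing notes. Its version is not given in the sources used here. Platform annotation names 1 gene for 7244 probe sets, several for 1 and none for 3683, and 5498 matched the S. cerevisiae gene table. For 47 genes the brightest of several probe sets was used, leaving 5449 genes. Background was set on each array at percentile 95 of 1746 probe sets whose genes that table lacks (5.72 to 6.33). Where every array of a group lies under it, the fold is a bound computed against that level. One limma model (version 3.58.1, R 4.3.3) gave each of the 29 groups its mean, using 61 residual and 2.88 prior degrees of freedom. P-values (2-sided) were adjusted by the Benjamini-Hochberg method within each of 60 comparisons. Precision is limited by the number of arrays, and p-values reflect only the spread among replicates, which may be technical.

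The naming rule took the 10 members (in the text, those a comparison turns on, with the others in counts), up to 4 called genes of a list with the largest changes, the 5 genes most like BAT2, ARO9, ARO10 and ATF1, and 6 genes that check labels. Members and lists were chosen with earlier results of these data known. The comparison of the agar change at 6 h with that at 0 h was added after seeing the data. Alternatives were quantile normalization, median centring, leaving out the dimmest 25% of genes, averaging probe sets of one gene, a fit on the compared arrays, replicate letters as a block, each array left out, 3 of the 6 arrays at 0 h, and pRS316 as control. Same-letter arrays deviated together (every pair above a correlation of 0.1) in 2 of 46 comparisons, so letters were not used as pairs in the main fit. With 3 arrays in most groups, this cannot show that the samples are unpaired. The steps were tested on simulated data. No sequences or coordinates are given, since no sequence table was used here.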

Additional observations from a re-analysis of the deposited data

Results flagged for a closer look

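One array was far from the others of its group: ATF2 read 11.05 in replicate A of the wild-type 0 h group on SD agar, and the other 5 arrays lay above it, with a gap of 0.74 of the group's range. Chance alone flags about 1 in 20 such tests, and 10 genes were tested in that group.

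The change on agar differed at least 2-fold between groups, with an adjusted p under 0.05, in 21 of 140 tests of a difference. Calls among all 5449 genes varied widely between these comparisons. They were fewest for MSB2* minus pRS316 (19 higher and 20 lower). Most were called for PGAL1-FLO11 minus wild-type in SG (492 higher and 506 lower). For SLAD minus SD 17.5% of all genes were called, and for SG minus SD 12.5%. Between strains in SD, BAT2 had a smaller agar change in STE11-4 than with pRS313 (-1.14), a smaller one with pRS316 than in wild-type (-1.68) and a larger one in msb2 than with pRS316 (1.22). EEB1 differed between MSB2* and pRS316 (2.57), and ATF2 between msb2 and pRS316 (-1.36). ARO9 differed between msb2 and wild-type (-1.13) and between pRS316 and wild-type (-1.07). The BAT2 agar change in msb2 was not larger than that in wild-type. The pRS316 strain also differed from wild-type and msb2 in URA3 (means on agar 13.44, against 4.70 and 4.40), and the part of this was not tested.

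Between nutrients in wild-type, the agar change in SLAD minus that in SD was -4.97 for ARO10, -4.15 for ARO9, -1.74 for BAT2, 1.95 for ATF2, 1.62 for EEB1 and 1.47 for EHT1. In SG minus SD it was -1.95 for BAT2, -1.38 for ATF1, 1.06 for BAT1, 1.15 for ATF2 and 2.23 for EEB1. In SG, PGAL1-FLO11 minus wild-type was -1.18 for BAT1. Between times in wild-type SD, 6 h minus 0 h was 2.60 for BAT2 and 1.09 for ATF1. Many of these tests share the wild-type SD arrays.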

How the results depend on the processing

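Of 600 values of members (10 genes in 60 comparisons), 86 were past 2-fold with an adjusted p under 0.05. All 86 kept their direction and an adjusted p under 0.05 in the 1155 refits under the alternatives, 71 stayed past 2-fold in each of them and 15 fell below 2-fold in some. The value that moved over 1.5 times was ARO80 in SG minus SD for PGAL1-FLO11 on agar (0.63 under quantile normalization, against 1.09). The BAT2 change at 6 h minus 0 h in SD liquid (-0.48) was -0.37 under quantile normalization and -0.31 under median centring and did not pass there (adjusted p = 0.077 and 0.148); without 1 array it ran from -0.56 to -0.40. BAT2 on agar minus gelatin (0.53) was 0.43 under centring (adjusted p = 0.148) and 0.53 in a fit on these arrays (adjusted p = 0.999), with 0.37 to 0.73 without 1 array. ARO80 on gelatin minus liquid (0.11) ran from -0.41 without gelatin replicate A to 0.45 without replicate C. With pRS316 in place of wild-type as control, flo11 in SD liquid turned its sign for BAT1 (-0.058), BAT2 (-0.95), ARO9 (-1.05), ARO80 (-0.0226) and ATF2 (0.44); the cause was not tested. Centring moved the median of all genes by -0.28 to 0.24 (over 0.1 in 29 of 60 comparisons) and quantile normalization by -0.14 to 0.10, with no called value of a member turning its sign. Letters were not used as pairs in the main fit, and with the replicate block BAT2 in wild-type SD agar minus liquid was 2.60, while 7 of 600 calls changed. Genes near background (ARO9, ARO10) and near the top of the range (BAT1, ARO8) are measured with least room to change.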
